A study of Homo sapiens with 4 samples.

Results

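RET, ALK and the co-receptors, relatives and ligands around them were followed in SH-SY5Y cells, a human line cloned from a neuroblastoma, the childhood tumour of the sympathetic nervous system. The 10 genes were chosen by name, as receptor tyrosine kinases of neuroblastoma with their co-receptors and ligands, and each matched 1 of 23576 rows of the expression table. They are RET, GFRA1, GFRA2, GFRA3, ARTN, NRTN, ALK, LTK, PTN and MDK. RNA was sequenced in 4 libraries, 2 per group. Differentiated cells, taken on day 16, had received retinoic acid (10 µM, 7 days) in medium with serum and then brain-derived neurotrophic factor, BDNF (20 ng/mL, 9 days), in medium without it. Undifferentiated cells were taken on day 0 and had received neither agent. The groups therefore differ in retinoic acid, BDNF, serum and time in culture, which cannot be told apart.

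RET is a receptor tyrosine kinase that recognises its ligands only together with a co-receptor anchored to the outer face of the membrane. These co-receptors, the GFRA proteins, each prefer a ligand of the GDNF family: GFRA1 binds GDNF, GFRA2 neurturin (NRTN), GFRA3 artemin (ARTN) and GFRA4 persephin (PSPN). In the sympathetic nervous system this signalling guides neuroblast migration, survival and axon growth. ALK and its close relative LTK are receptors for the secreted ALKAL proteins, and ALK is recurrently mutated in neuroblastoma; SH-SY5Y cells carry an activating ALK mutation. Pleiotrophin (PTN) and midkine (MDK) are related heparin-binding growth factors that were once proposed as ALK ligands and that bind syndecans, integrins and the phosphatase PTPRZ1. Midkine was found as a gene induced by retinoic acid in mouse embryonal carcinoma cells.

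The promoters of PTN, ALK and RET are shown because PTN is the gene that was called and ALK and RET are the abundant receptor genes, and the 3 differ in base composition. Each sequence is the 250 bases before the RefSeq start site (GRCh38.p14), written 5′ to 3′ on the gene's strand, with matches to any of 5 motifs in capitals. The motifs, searched on both strands, were the GC box GGGCGG, the TATA box TATAAA, the CCAAT box CCAAT, the nuclear receptor motif AGGTCA and the E-box CACGTG. PTN lies at chr7:137343734-137343983 on the minus strand, ALK at chr2:29921587-29921836 on the minus strand and RET at chr10:43076819-43077068 on the plus strand.
PTN: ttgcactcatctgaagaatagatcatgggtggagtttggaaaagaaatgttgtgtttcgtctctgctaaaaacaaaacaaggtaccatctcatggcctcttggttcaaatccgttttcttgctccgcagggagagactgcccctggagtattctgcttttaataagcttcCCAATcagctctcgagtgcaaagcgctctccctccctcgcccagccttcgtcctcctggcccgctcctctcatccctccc
ALK: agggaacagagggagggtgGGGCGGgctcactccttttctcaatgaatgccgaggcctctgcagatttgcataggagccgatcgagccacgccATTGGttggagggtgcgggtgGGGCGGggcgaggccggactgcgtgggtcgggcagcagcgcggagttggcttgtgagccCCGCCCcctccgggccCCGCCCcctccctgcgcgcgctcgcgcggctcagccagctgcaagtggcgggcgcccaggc
RET: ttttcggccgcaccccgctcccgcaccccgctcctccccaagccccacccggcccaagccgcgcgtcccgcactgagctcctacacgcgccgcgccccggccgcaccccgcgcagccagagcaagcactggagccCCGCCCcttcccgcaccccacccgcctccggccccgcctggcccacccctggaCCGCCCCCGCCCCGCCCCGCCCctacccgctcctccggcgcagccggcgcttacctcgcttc

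The PTN window held 50.4% G and C, the ALK window 71.6% and the RET window 79.6%, beside a median of 58% over 27305 genes. PTN had 0 GC boxes, ALK 4 and RET 5, where adjoining matches in RET run into each other, while 42.3% of all promoters of this length held at least 1. The CCAAT box occurred once each in the PTN and ALK windows and in 33.0% of all promoters. The TATA box (11.1% of all promoters), the nuclear receptor motif (12.1%) and the E-box (6.49%) were not among the letters of these 3 windows. RefSeq windows were matched for 8 of the 10 genes. Among them NRTN, with 80.4% G and C and 5 GC boxes, was closest to RET, and GFRA1, with 43.2% and 0 GC boxes, was lowest.

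Each value is a group's FPKM in the authors' deposited table, that is, fragments scaled to transcript length and to library size. With 1 value per group, no spread between the 2 libraries can be given and depth is unknown. Nothing in the labels says that replicates came from separate cultures, so q-values may measure technical spread. After ±, a log2 fold change (differentiated over undifferentiated) carries the standard error implied by the deposited statistic, and "called" means a deposited q-value below 0.05. The median log2 fold change over the 11169 genes that were tested and averaged 1 FPKM or more was -0.62. Each gene was therefore also set against this median gene, by a normal test with the implied error and Benjamini-Hochberg adjustment over all 11169 genes.

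Neuroblast identity genes were present in both groups: 0 of 12 were listed at 0. They summed to 653 FPKM in differentiated and 1252 FPKM in undifferentiated cells. Of the 12, 9 were called lower, beside 31.4% of all genes, and 5 lay below the median gene, beside 4.56% of all genes. Of 8 Schwann and glial markers, 7 stayed below 1 FPKM in both groups, the exception being S100B (2.98 FPKM in differentiated and 4.33 FPKM in undifferentiated cells, the authors' deposited table). The sum of 8 fibroblast markers was 33.6 FPKM in differentiated and 42.9 FPKM in undifferentiated cells (the authors' deposited table). Of the 5 of these that were tested, DCN, THY1 and PDGFRB were called lower (the authors' deposited table). That is 60% of the 5, beside 31.4% of all genes. None of these 3 passed against the median gene. LUM, the most abundant of the 8 in differentiated cells, was not called (17.95 FPKM in differentiated and 12.52 FPKM in undifferentiated cells, the authors' deposited table) but lay above the median gene (adjusted p = 0.00290). It was the 1 of the 5 to do so, beside 5.64% of all genes. Whether these marker levels bear on the results was not tested. In RNA from whole cultures, fewer cells of a type and less RNA per cell cannot be told apart.

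PTN fell and was the 1 gene of the 10 that was called. MDK remained the most abundant of them, RET stood at nearly the same level in both groups, and ALK lay above the median gene without being called. The co-receptor genes GFRA1, GFRA2 and GFRA3 and the receptor gene LTK were at a few FPKM or less. The authors tested 7 of the 10 genes, and 6 of these averaged 1 FPKM or more. Of the 6, 1 was called lower, beside 31.4% of all 11200 such genes, and 0 were called higher, beside 2.20%. At an unadjusted p below 0.05 in the authors' deposited table, 1 of the 6 was higher (3.08% of all genes) and 1 lower (41.7%). Against the median gene 2 of the 6 lay above (5.64% of all genes) and 1 below (4.56%). Counts this small say little about the 10 genes as a group. The locus of none of the 10 overlapped another row of the table.

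**Figure D1:**
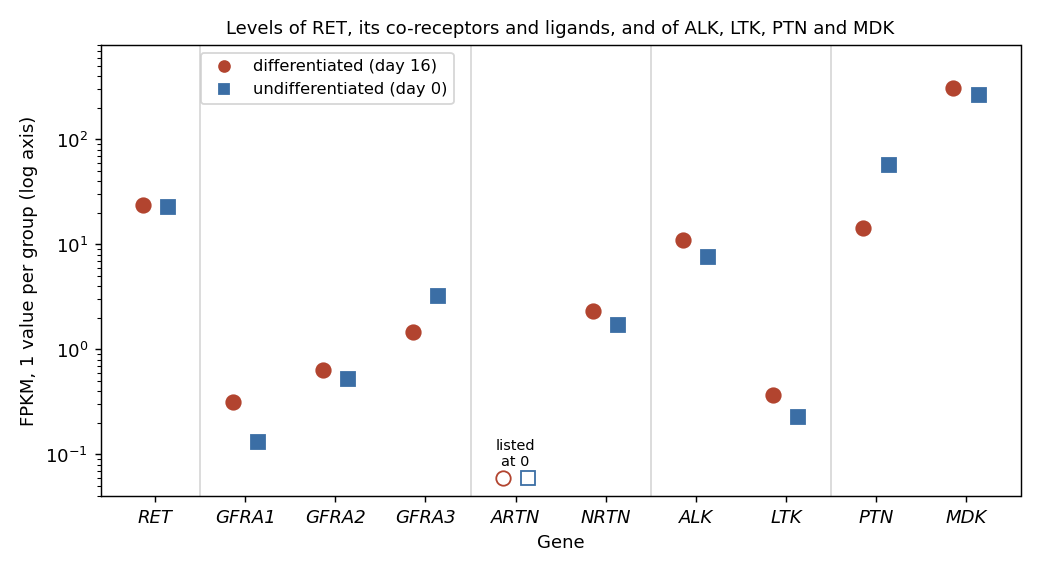
FPKM of the 10 genes on a log axis, with 1 point per group (circles differentiated, squares undifferentiated) and open symbols for ARTN, which was listed at 0. MDK stands highest in both groups, PTN is lower in differentiated cells, and the GFRA genes and LTK lie below RET and ALK.

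Among the receptors, RET (chromosome 10, 43572517 to 43625797, hg19) is given by the authors' deposited table as 24.0 FPKM in differentiated and 22.8 FPKM in undifferentiated cells. The log2 fold change of RET was 0.07 ± 0.278 (q = 0.867, the authors' deposited table). Its 95% interval runs from a 0.722-fold to a 1.54-fold level in differentiated cells, so a moderate change either way is within the error. RET lay 0.70 above the median gene on the log2 scale, which did not pass (adjusted p = 0.0945). This depended on the setting: it passed with a minimum mean of 5 FPKM (adjusted p = 0.0499) and with equal-sum scaling (0.0240), and the adjusted p ran from 0.0240 to 0.127 over the 5 alternatives. In rank, RET stood above 87.7% of tested genes in differentiated and 79.7% in undifferentiated cells.

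ALK (chromosome 2, 29415640 to 30144477, hg19) reached 11.0 FPKM in differentiated cells, against 7.63 FPKM in undifferentiated cells, according to the authors' deposited table. This is a log2 fold change of 0.53 ± 0.252, which was not called (p = 0.0355, q = 0.0944, the authors' deposited table). ALK lay 1.15 above the median gene on the log2 scale (adjusted p = 0.000196), and it passed under each of the 5 alternatives for that comparison. Of the 11169 genes, 6.23% had a larger fold. By level, ALK stood above 74.7% of tested genes in differentiated and 53.8% in undifferentiated cells. The fold of ALK exceeded that of RET by 0.45 on the log2 scale, with a 95% interval of -0.28 to 1.19, so the error does not separate them.

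LTK, the relative of ALK, was far less abundant: the authors' deposited table lists it at 0.369 FPKM in differentiated and 0.229 FPKM in undifferentiated cells and marks it as not tested. ALK exceeded LTK 29.8-fold in differentiated and 33.2-fold in undifferentiated cells, as ratios of FPKM, which is scaled to length. At 0.69 ± 1.37, the log2 fold change of LTK has a 95% interval that runs from a 0.249-fold to a 10.4-fold level.

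The co-receptors were low beside RET. For GFRA3, the artemin co-receptor, the authors' deposited table gives 1.46 FPKM in differentiated and 3.22 FPKM in undifferentiated cells. The log2 fold change of GFRA3, -1.14 ± 0.606, was not called (q = 0.139, the authors' deposited table) and did not differ from the median gene (adjusted p = 0.735). For GFRA2, the neurturin co-receptor, the authors' deposited table gives 0.631 FPKM in differentiated and 0.521 FPKM in undifferentiated cells (q = 0.829), under the minimum mean of 1 FPKM. GFRA1, the GDNF co-receptor, had 0.318 FPKM in differentiated and 0.130 FPKM in undifferentiated cells and carries no test in the authors' deposited table. The log2 fold change of GFRA1, 1.29 ± 0.777, became 0.22 when 1 FPKM was added to each value, since it rests on levels near 0.

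GFRA1, GFRA2 and GFRA3 summed to 2.41 FPKM in differentiated and 3.87 FPKM in undifferentiated cells. RET exceeded that sum 9.94-fold in differentiated and 5.87-fold in undifferentiated cells. GFRA3 made up 60.6% of the sum in differentiated and 83.2% in undifferentiated cells. The fold of GFRA3 differed from that of RET by -1.22 on the log2 scale, with a 95% interval of -2.52 to 0.09 that includes 0.

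Of the RET ligands, NRTN stands in the authors' deposited table at 2.33 FPKM in differentiated and 1.72 FPKM in undifferentiated cells. A log2 fold change of 0.44 ± 0.840 for NRTN was not called (q = 0.732, the authors' deposited table). ARTN was listed at 0 in both groups and has no test in the authors' deposited table. NRTN was thus listed above GFRA2, the co-receptor it prefers, while the ligand of GFRA3, the most abundant of the GFRA genes in both groups, was listed at 0.

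**Figure D2:**
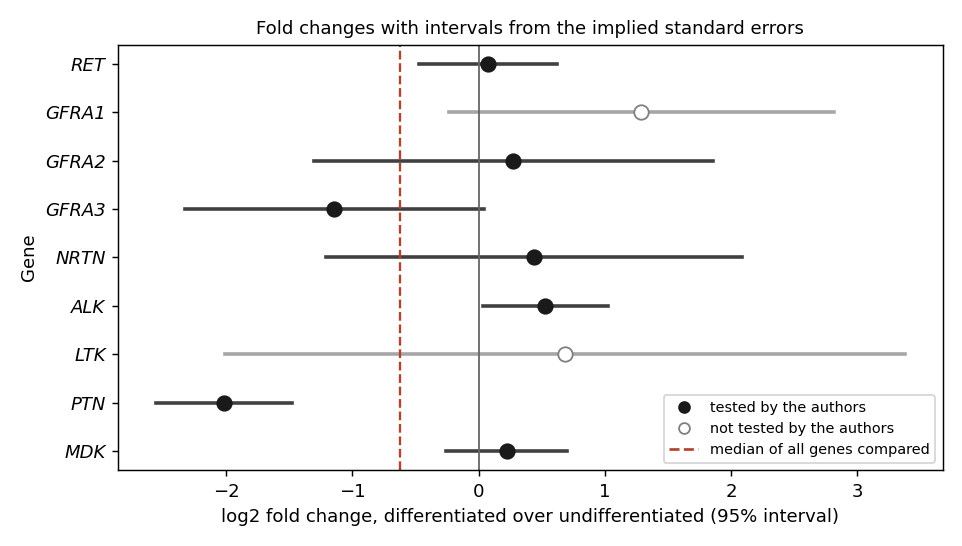
The log2 fold change of each gene with a value above 0 in both groups, differentiated over undifferentiated, with 95% intervals from the implied standard errors. PTN lies wholly below the dashed median of -0.62, RET, ALK, MDK and the scarce GFRA1 wholly above it, and filled points were tested by the authors.

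Of the growth factors, PTN (chromosome 7, 136912092 to 137028546, hg19) was down to 14.3 FPKM in differentiated cells, against 57.7 FPKM in undifferentiated cells, according to the authors' deposited table. The log2 fold change of PTN was -2.02 ± 0.275 (q = 4.59e-11, the authors' deposited table). The level in differentiated cells was 0.247 of that in undifferentiated cells, with a 95% interval of 0.170 to 0.359. PTN lay below the median gene as well, by a log2 difference of -1.39 (adjusted p = 2.42e-05). Of the 11169 genes, 171 had a smaller fold. By level, PTN stood above 80.2% of tested genes in differentiated and 91.8% in undifferentiated cells.

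MDK (chromosome 11, 46402334 to 46405387, hg19) had 312 FPKM in differentiated cells and 267 FPKM in undifferentiated cells, by the authors' deposited table. At 0.22 ± 0.244, the log2 fold change of MDK was not called (q = 0.516, the authors' deposited table), and it lay 0.85 above the median gene (adjusted p = 0.00924). MDK ranked 201st in differentiated and 290th in undifferentiated cells among 12789 tested genes. The folds of PTN and MDK differed by -2.24 on the log2 scale (95% interval -2.96 to -1.52), a pair set side by side after its values were seen, as were the pairs with RET above.

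Together the PTN and MDK genes had 326 FPKM in differentiated and 325 FPKM in undifferentiated cells, in the values as deposited. On that scale the median gene's log2 fold change was -0.62. Equal-sum or median scaling would raise the sum in differentiated cells relative to that in undifferentiated cells. PTN supplied 4.37% of the summed FPKM in differentiated and 17.7% in undifferentiated cells. MDK exceeded PTN 21.9-fold in differentiated and 4.64-fold in undifferentiated cells. A pseudocount cannot change the sign of a fold. Equal-sum and median scaling raise every fold, so folds above 0 could not turn under them. The folds of PTN and GFRA3, the genes with a fold below 0, stayed below 0 under each scaling computed.

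Among 58 human receptor tyrosine kinase genes, RET had the highest FPKM in differentiated cells and the 4th highest in undifferentiated cells, and ALK was 4th in differentiated and 10th in undifferentiated cells. RET and ALK together made up 26.0% of the summed FPKM of the family in differentiated and 14.5% in undifferentiated cells. The sum itself was 134 FPKM in differentiated and 210 FPKM in undifferentiated cells. In differentiated cells PTK7 (16.4 FPKM), RYK (11.6), ALK and PDGFRA (9.80) followed RET, while in undifferentiated cells PDGFRA (35.1), PTK7 (27.9) and RYK (23.6) stood above it (the authors' deposited table). No spread is known for a level, so neighbours such as RYK and ALK in differentiated cells, or RYK and RET in undifferentiated cells, cannot be put in order.

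**Figure D3:**
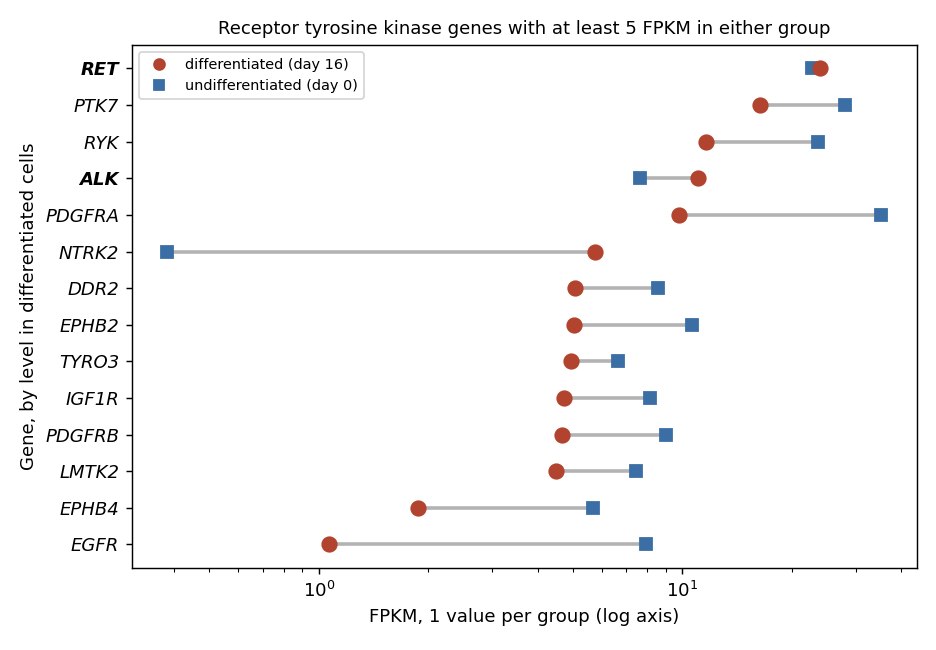
FPKM of the 14 receptor tyrosine kinase genes with at least 5 FPKM in either group, on a log axis, ordered by level in differentiated cells (circles), with undifferentiated cells as squares. RET, ALK and NTRK2 have their circle to the right of their square, and the other 11 genes have it to the left; a gene enters through its level in either group.

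Of the 23 receptor genes that were tested and averaged 1 FPKM or more, 5 had a higher FPKM in differentiated cells, RET, ALK and NTRK2 among them, and 18 a lower one, in the values as deposited; 16.1% of all genes had a higher one. Set against the median gene's fold, 11 of the 23 were above it and 12 below, and with equal-sum scaling 14 had a fold above 0. The authors called 1 higher (4.35% of the 23, beside 2.20% of all genes) and 9 lower (39.1%, beside 31.4%). In the comparison with the median gene 2 passed above, beside 5.64% of all genes, and 2 below, beside 4.56%. NTRK2, the BDNF receptor gene, was called higher, with 5.76 FPKM in differentiated cells against 0.383 FPKM in undifferentiated cells (the authors' deposited table). EGFR, the epidermal growth factor receptor gene (log2 fold change -2.90), and PDGFRA, a platelet-derived growth factor receptor gene (-1.84), fell (the authors' deposited table) and were below the median gene too. EPHB4 (-1.60) and EPHB2 (-1.07), ephrin receptor genes, and RYK (-1.02), a WNT receptor gene, were also called lower (the authors' deposited table), with no difference from the median gene that passed. The median log2 fold was -0.73 over the 23 genes and -0.76 over the 21 without RET and ALK, beside -0.62 over all genes.

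Of 9 further RET ligand and co-receptor genes, 4 had a test and a mean of at least 1 FPKM. Of these 4, 1 was called higher, beside 2.20% of all genes, and 0 lower, beside 31.4%. GDF15, a stress-induced ligand that signals through GFRAL and RET, was the called gene, with 3.44 FPKM in differentiated cells against 0.202 FPKM in undifferentiated cells (log2 4.09 ± 1.34, q = 0.0118, the authors' deposited table). Its receptor gene GFRAL was listed at 0 in differentiated cells and at 0.0320 FPKM in undifferentiated cells (the authors' deposited table). GDNF was listed at 0.00587 FPKM in differentiated cells and at 0 in undifferentiated cells, and PSPN and GFRA4 at 0 in both (the authors' deposited table). NCAM1, an adhesion molecule that also binds GDNF, had 34.7 FPKM in differentiated cells and 30.1 FPKM in undifferentiated cells (the authors' deposited table, q = 0.519), and its fold was above that of the median gene (adjusted p = 0.00476). SORL1, a sorting receptor for GDNF and GFRA1 (log2 0.63, q = 0.115, the authors' deposited table; adjusted p = 0.00191), and GDF15 (adjusted p = 0.00802) lay above it as well. Thus 3 of the 4 lay above the median gene, beside 5.64% of all genes, while SDC3, a syndecan gene, did not pass (adjusted p = 0.249).

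On the side of ALK, its known ligand genes were near 0 and partners of pleiotrophin and midkine moved in both directions. FAM150B (ALKAL2) had 0.0171 FPKM in differentiated cells and 0.155 FPKM in undifferentiated cells, FAM150A (ALKAL1) was listed at 0 in both, and PTPRZ1 was listed at 0.0374 FPKM in differentiated cells and at 0 in undifferentiated cells (the authors' deposited table). The list held 19 genes, and 13 of them were tested and averaged 1 FPKM or more. Of the 13, 1 was called higher (7.69%, beside 2.20% of all genes) and 6 lower (46.2%, beside 31.4%). Relative to the median gene, 1 of the 13 lay above, beside 5.64% of all genes, and 2 below, beside 4.56%. The list median of -0.68 was near the -0.62 of all genes. SDC2, a syndecan gene, was at 3.96 FPKM in differentiated cells against 38.6 FPKM in undifferentiated cells (log2 -3.29 ± 0.351, the authors' deposited table). SDC2 and NCL, the nucleolin gene (-1.42, the authors' deposited table), lay below the median gene. GPC2, a glypican gene whose product binds midkine, rose, with 7.76 FPKM in differentiated cells against 2.58 FPKM in undifferentiated cells (log2 1.59, q = 0.000854, the authors' deposited table). NRP1, a neuropilin gene (-1.76), ITGAV, an integrin gene (-1.27), SDC1, a syndecan gene (-0.92), and ITGB1, an integrin gene (-0.68), were called lower (the authors' deposited table) but did not pass against the median gene, and ITGB1 turned to 0.10 with equal-sum scaling.

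**Figure D4:**
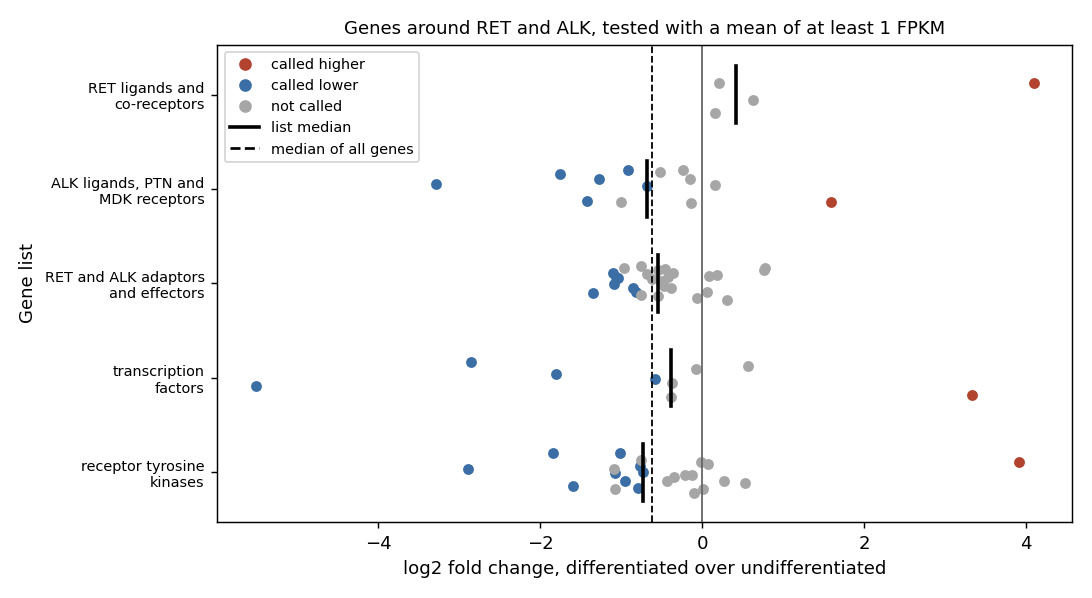
Each point is 1 gene of the 5 lists, tested with a mean of at least 1 FPKM, placed by its log2 fold change (differentiated over undifferentiated) and coloured by the authors' call; thick bars mark list medians and the dashed line the median of all genes. RET and ALK are among the receptor points, and the list medians run from -0.73 to 0.42.

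Below the receptors, 33 adaptor and effector genes were read, 27 of them tested and averaging 1 FPKM or more. The authors called 0 higher, beside 2.20% of all genes, and 7 lower, which is 25.9% of the 27 beside 31.4% of all genes. Against the median gene 3 of the 27 lay above, beside 5.64% of all genes, and 0 below, beside 4.56%. The list median was -0.55, beside -0.62 over all genes. The adaptor genes SHC3 (-1.35), DOK4 (-1.10), GAB1 (-1.07) and CRKL (-1.04), the phosphatase gene PTPN11 (-1.09) and the phospholipase gene PLCG1 (-0.85) were among the 7, as log2 fold changes in the authors' deposited table. GAB2, PIK3R1 and SHC2, named after their values were seen, were the 3 above the median gene.

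Of 14 genes for transcription factors described to act on RET or ALK, 9 were tested and averaged 1 FPKM or more. Of the 9, 1 was called higher (11.1%, beside 2.20% of all genes) and 4 lower (44.4%, beside 31.4%). The comparison with the median gene put 1 of the 9 above, beside 5.64% of all genes, and 3 below, beside 4.56%. The list median of -0.39 was higher than the -0.62 of all genes. RARB, a retinoic acid receptor gene, rose (log2 3.33, the authors' deposited table). GATA2 (-2.85) and GATA3 (-1.80), regulators of sympathetic neuroblast identity, fell (the authors' deposited table) and were below the median gene too. HAND2, another of these regulators, was called lower (-0.58, the authors' deposited table), a fold that is 0.04 once the median is taken off.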

How the data were processed

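RNA sequencing covered 4 libraries of SH-SY5Y cells, 2 per group, grouped by their titles. Per the labels' protocols, libraries were made from total RNA after DNase treatment and removal of ribosomal RNA, by random priming, with 1 sequencing lane each. The submitters' processing notes name Cufflinks 2.0.2, TopHat2 2.0.8 and hg19. Per the file headers the authors deposited, for every gene, an FPKM per group with a log2 fold change, a statistic, a p-value and q-value. How libraries were combined or scaled, and which annotation was used, is not given in the sources used here. Depth is unknown without counts, so levels carry no interval or detection floor.

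The members and lists were chosen with earlier results of these data known. The deposited q-values served as the test, since limma needs values per library. In 12729 of 12729 tested rows above 0 in both groups, the deposited p-value matched a two-sided normal p of the statistic (tolerance 0.001). The implied standard error is therefore the size of the fold over that of the statistic, whose sign is opposite to the fold's. Folds less the median, over this error, gave normal p-values that were adjusted by Benjamini-Hochberg. This inherits the authors' variance model, which 1 value per group cannot check. The 28 rows named by a date were left out, and single values of some listed genes are not reported here. Starts were raised by 1: end less listed start was the RefSeq gene length at 2043 loci, and 1 less than it at 268. Named genes were all 10 members, the called genes of the 2 ligand and receptor lists, and up to 6 called genes of largest change from each other list. Some other genes, NCAM1, SORL1, SDC3 and LUM among them, fall outside this rule and were named with their values known. Promoters came from RefSeq by symbol, taking the most upstream start, and no coordinates were compared between builds. Other settings of pseudocount, low-value filter, threshold, centre and scaling were tried. Python 3.11.15 was used with scipy 1.17.1, pandas 2.3.3, numpy 2.4.6 and, for plots, matplotlib 3.10.9.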

Additional observations from a re-analysis of the deposited data

How the results depend on the processing

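The counts of the 10 genes called higher or lower, and above or below the median gene, kept within 1.5 times their reported values under the alternatives run, except at an unadjusted p below 0.05, where 1 gene, ALK, was higher in place of 0. Over all listed pathway and marker genes, each counted once, 4 were called higher and 33 lower. These counts serve only to compare settings. They are not shares and cannot be set against the 2.20% and 31.4% of all genes. Shares for each pathway list are given with that list above. With a minimum mean of 5 FPKM, which fewer genes pass, the higher count was 1 and the lower count 27. PTN stayed below the centre and ALK and MDK above it, each past the threshold, under the 5 alternatives for that comparison, while RET passed it under 2 of them. The cause of the change for RET was not tested. Scalings raise log2 folds by 0.78 (equal sum), 0.62 (median fold taken off) and a median of 0.60 (quantile normalization), and the fold of PTN was -1.23, -1.39 and -1.32 under them. No paired analysis was possible because the table holds 1 value per group, and for the same reason no replicate could be left out. Low levels limit GFRA1, GFRA2, LTK and NRTN, whose implied standard errors run from 0.777 to 1.37.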
